A study of Mus musculus with 10 samples.

Results

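The genes Ccn1, Ccn2, Ccn3, Ccn4 and Ccn5 encode the CCN matricellular proteins, secreted proteins that sit in the extracellular matrix and modulate how cells respond to it. They were taken by gene symbol from the deposited count table, where all 5 were present among 28165 genes, and all 5 were among the 15718 genes that passed the filter on low counts. The symbols Ccn5 and Ccn2 were the reason for choosing the family, since both had stood out earlier in the same comparison of genotypes. Every difference between genotypes given here for a CCN gene is therefore a description, without a p-value. A standard error is given for the fit with all libraries, but not for most alternative fits. Where a test's calls are counted, they are background, and nothing is read from them for a CCN gene. The libraries were made from smooth muscle cells of the mouse aorta at embryonic day 15.5. Heterozygous Eln+/- mice carrying the green fluorescent reporter Acta2-GFP were intercrossed, and cells of untreated Eln+/+ and Eln-/- embryos were sorted as GFP+, CD31- and DAPI-, that is, positive for the reporter and negative for an endothelial surface protein and for a dye of dead cells. There were 5 libraries per genotype, and cells of both genotypes carried the reporter, which marks cells in which the Acta2 promoter is active. The labels do not name the Eln allele, the number of embryos per library or whether replicates are separate embryos, so the spread between libraries may be partly technical.

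CCN proteins are built from up to 4 cysteine-rich modules: an IGF-binding-protein-like module, a von Willebrand factor type C module, a thrombospondin type 1 module and a C-terminal cystine knot. They bind integrins, heparan sulphate proteoglycans and LRP receptors, and they modulate TGF-beta, BMP, Wnt and Notch signals. Ccn1 and Ccn2 are known as targets of YAP/TAZ with TEAD, of SRF and of TGF-beta, and both are induced within minutes to hours by serum, stretch or dissociation of tissue. Ccn4 and Ccn5 were first described as genes induced by Wnt. CCN5 lacks the C-terminal cystine knot and is known in vascular smooth muscle for restraining proliferation and migration.

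The gene models reflect that difference. In GENCODE release M21, on GRCm38 (the assembly also called mm10), the principal transcript of Ccn5 had 4 coding exons and 251 codons, 29 of them for cysteine. The other 4 genes had 5 coding exons each, with 379 codons in Ccn1, 348 in Ccn2, 354 in Ccn3 and 367 in Ccn4, of which 38 to 40 encoded cysteine. The coding bases around the cysteine-rich signature of the IGF-binding-protein-like module are shown because they are the feature that the rule did not use and all 5 members share. Capitals mark the 8 codons of the signature, found as the residue pattern glycine, cysteine, any residue, a pair of cysteines, any 2 residues, cysteine, with 12 codons on either side.
Ccn1: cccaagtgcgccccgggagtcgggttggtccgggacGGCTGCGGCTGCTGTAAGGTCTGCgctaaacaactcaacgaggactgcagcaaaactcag
Ccn2: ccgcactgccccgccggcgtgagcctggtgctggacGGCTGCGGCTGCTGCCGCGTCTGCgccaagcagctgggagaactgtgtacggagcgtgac
Ccn3: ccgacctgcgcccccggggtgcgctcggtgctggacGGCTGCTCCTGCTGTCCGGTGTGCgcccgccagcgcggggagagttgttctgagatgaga
Ccn4: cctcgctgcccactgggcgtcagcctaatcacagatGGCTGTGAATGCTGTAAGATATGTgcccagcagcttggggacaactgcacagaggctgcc
Ccn5: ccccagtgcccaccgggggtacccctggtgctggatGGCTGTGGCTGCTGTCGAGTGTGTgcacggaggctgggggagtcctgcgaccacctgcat
These stretches lie at chr3:145649295-145649390 (minus strand) for Ccn1, chr10:24595930-24596025 (plus) for Ccn2, chr15:54746229-54746324 (plus) for Ccn3, chr15:66906509-66906604 (plus) for Ccn4 and chr2:163825189-163825284 (plus) for Ccn5, in exon 2 of the first 4 genes and exon 3 of Ccn5. Between pairs of genes, 52 to 64 of the 96 bases were identical at the same position without gaps. Within the 24 bases of the signature, 14 to 20 were identical. Ccn5 matched Ccn2 at 61 bases and Ccn4 at 56.

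Total counts ranged from 26951681 to 63866346 per library. Eln+/+ replicate 1 and Eln-/- replicates 4 and 5 stood apart, with 15089, 15595 and 15925 genes detected against 18157 to 22951 in the other 7 libraries. They are called the 3 libraries with the fewest detected genes below. They also had the lowest total counts (26951681, 28367714 and 31366586). Their share of counts in a ribosomal RNA gene model was the highest of the series (5.53%, 5.99% and 5.52%). Eln itself was at 159 to 1214 CPM in Eln+/+ and at 0 to 0.493 CPM in Eln-/- (CPM, counts scaled to a common library size with edgeR's TMM factors), so its level follows the labels. The smooth muscle gene Acta2 was at 473 to 1740 CPM over the 10 libraries, whereas Myh11 ranged from 0.0377 to 119 CPM. The summed CPM of 7 smooth muscle markers was 866 to 2110 in Eln+/+ and 1150 to 3430 in Eln-/-. All 7 had positive log2 fold changes (median 0.82), and none was called, since edgeR called no gene of the whole table. Endothelial markers summed to 14.2 to 62.9 CPM in Eln+/+ and 26.2 to 54.8 CPM in Eln-/-, with Pecam1 at no more than 7.70 CPM but Tek at up to 37.8 and Egfl7 at 7.75 to 52.4 CPM. Immune markers summed to at most 16.4 CPM, with Ptprc at 0 in 7 of the libraries (4 Eln+/+ and 3 Eln-/-) and Lyz2 at up to 8.04 CPM. Fibroblast genes were abundant: the summed CPM of 7 fibroblast markers was 1200 to 4050 in Eln+/+ and 487 to 2700 in Eln-/-, and 2 had positive and 5 negative log2 fold changes (median -0.97, none called). Erythroid markers summed to 331 to 18900 CPM and 22.3 to 5160 CPM, with 1 positive and 5 negative log2 fold changes among the 6 tested (median -1.45, none called). Cardiomyocyte markers summed to 1.18 to 493 CPM and 11.4 to 480 CPM. Over both genotypes, the sums reached 198 CPM for mesothelial, 167 CPM for cartilage, 43.8 CPM for epithelial and 41.7 CPM for neural and glial markers. The part of these cell types in the CCN values was not tested, and fewer cells of a type cannot be told apart from less RNA per cell in such bulk libraries.

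Set against each other per length, Ccn1 was the most abundant CCN transcript in all 5 Eln+/+ libraries and in 3 of 5 Eln-/- libraries. Its mean level per length was 195 ± 226 CPM per kilobase of exon in Eln+/+ (SD, n = 5). In the same group Ccn4 was at 20.2 ± 13.5, Ccn3 at 15.8 ± 7.85, Ccn5 at 15.3 ± 7.91 and Ccn2 at 10.6 ± 7.91 CPM per kilobase. These last 4 were neighbours whose levels did not differ beyond their spread, and Ccn2 was the lowest of the 5 genes in 4 of 5 Eln+/+ libraries. In Eln-/- the means were 638 ± 1131 for Ccn1, 115 ± 73.2 for Ccn5, 27.5 ± 24.8 for Ccn2, 24.1 ± 23.0 for Ccn4 and 18.7 ± 11.0 CPM per kilobase for Ccn3. Ccn5 stood above Ccn2, Ccn3 and Ccn4 in all 5 Eln-/- libraries, whereas in Eln+/+ it stood above Ccn2 in 4, above Ccn3 in 2 and above Ccn4 in 2. Ccn5 exceeded Ccn1 in Eln-/- replicates 4 and 5 only, both among the libraries with the fewest detected genes.

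As a share of the summed CCN level per length, which does not depend on how libraries are scaled, Ccn1 made up 51.0%, 88.7%, 63.4%, 64.1% and 65.2% in the Eln+/+ libraries, in replicate order. The Eln-/- libraries held 89.6%, 70.3%, 45.0%, 30.4% and 14.7%. The share of Ccn5, in replicate order, was 18.4%, 1.74%, 3.21%, 10.2% and 11.98% in the Eln+/+ libraries and 4.94%, 15.4%, 34.8%, 36.6% and 74.7% in the Eln-/- libraries. The Ccn5 shares of Eln-/- replicates 1 and 2 fell within the Eln+/+ range and the other 3 lay above it. The highest shares of each genotype came from libraries with the fewest detected genes, namely Eln-/- replicates 4 and 5 and Eln+/+ replicate 1. The low share in Eln-/- replicate 1 went with the highest Ccn1 level of the series.

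**Figure D1:**
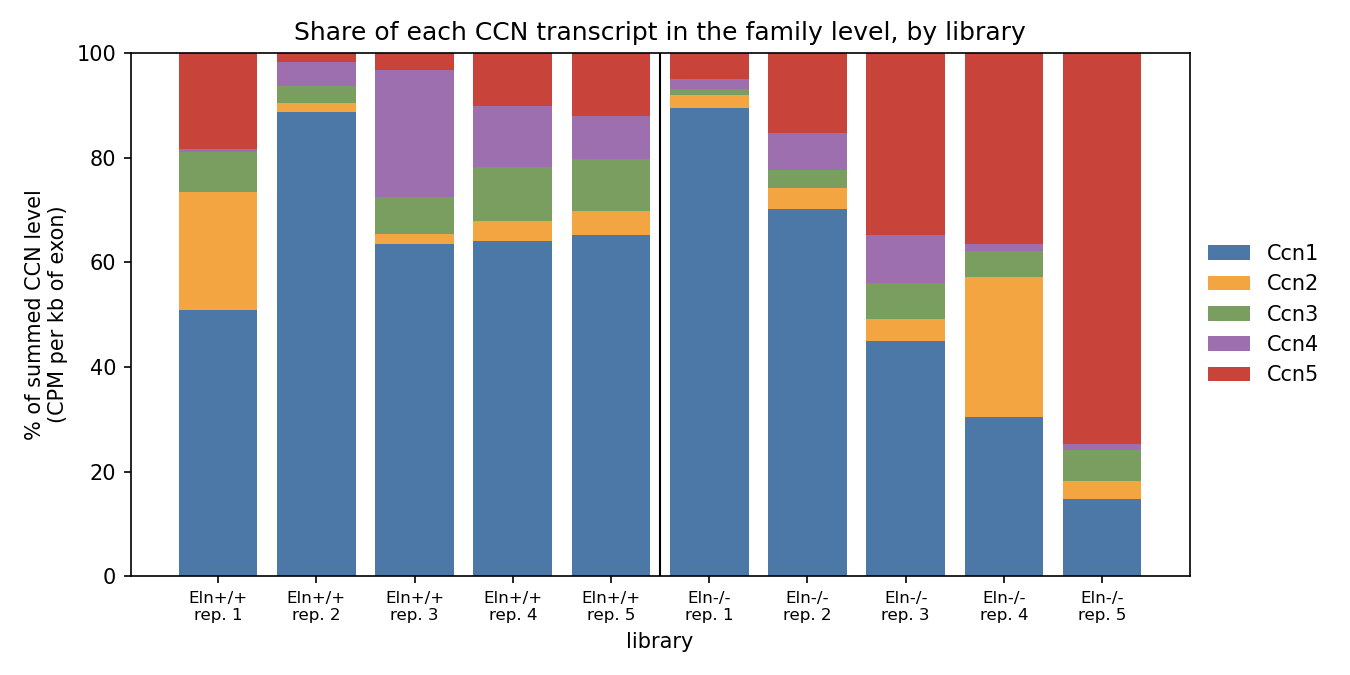
Stacked bars of the share (%) of each CCN transcript in the summed CCN level (CPM per kilobase of exon) in each library, Eln+/+ left and Eln-/- right of the line. Ccn1 fills 51.0% to 88.7% of every Eln+/+ bar, and Ccn5 reaches 74.7% in Eln-/- replicate 5, a library among those with the fewest detected genes.

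Ccn5, the member without the C-terminal knot, was higher in every Eln-/- library than in any Eln+/+ library under TMM scaling. Its gene model spans bases 163820861 to 163833146 of chromosome 2 (plus strand). The Eln+/+ libraries, in replicate order, held 37.0, 22.4, 7.79, 48.0 and 32.4 CPM of Ccn5. The Eln-/- libraries held 281, 145, 177, 69.2 and 433 CPM. The nearest libraries were Eln+/+ replicate 4 at 48.0 and Eln-/- replicate 4 at 69.2 CPM, and these values bound the gap between genotypes. The median was 5.47 times as high in Eln-/- (177 against 32.4 CPM). The log2 fold change of Ccn5 was 2.91 (SE 0.62), and it stayed between 2.40 and 3.16 in 20 alternatives of test, scaling, filter and library choice. Groups that did not overlap, with Eln-/- higher, were found for 0.14% of all genes tested (22 of 15718). That count is given as background only, since Ccn5 was chosen from this comparison.

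The gap of Ccn5 depended on the scaling. With total counts as the only scaling, Eln-/- replicate 4 was at 33.6 CPM of Ccn5, under Eln+/+ replicate 4 at 57.9 CPM, so 4 of 5 Eln-/- libraries lay above every Eln+/+ library. No overlap was found for 0.115% of genes under that scaling, and at least 4 of 5 Eln-/- libraries above every Eln+/+ library for 1.34% of genes under TMM scaling. The share with at least 4 of 5 under total counts, which would match the Ccn5 count, is not given. With DESeq2's size factors and with upper-quartile factors, all 5 Eln-/- libraries lay above every Eln+/+ library in Ccn5. The lowest Eln-/- library was at 76.8 and 103 CPM and the highest Eln+/+ library at 47.0 and 55.2 CPM (no overlap for 0.153% and 0.242% of genes). Eln-/- replicate 4 had the smallest TMM factor of the series, 0.486, and Eln+/+ replicate 4 had 1.21. Ratios of counts within a library are free of scaling, and 4 were computed after the values were seen. The ratio of Ccn5 to Ccn3 counts was 1.60, 0.349, 0.300, 0.656 and 0.817 over the Eln+/+ libraries in replicate order. Over the Eln-/- libraries it was 2.75, 2.92, 3.40, 4.94 and 8.63, with no overlap, the only 1 of the 4 ratios without. The share of all genes whose ratio to Ccn3 does not overlap is not given. Since Ccn5 was chosen from this comparison, nothing is read from that gap. The ratio of Ccn5 to Ccn2 counts was 0.552 to 1.84 in Eln+/+ and 0.920 to 14.0 in Eln-/-, and those to Ccn1 and Ccn4 counts overlapped as well.

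**Figure D2:**
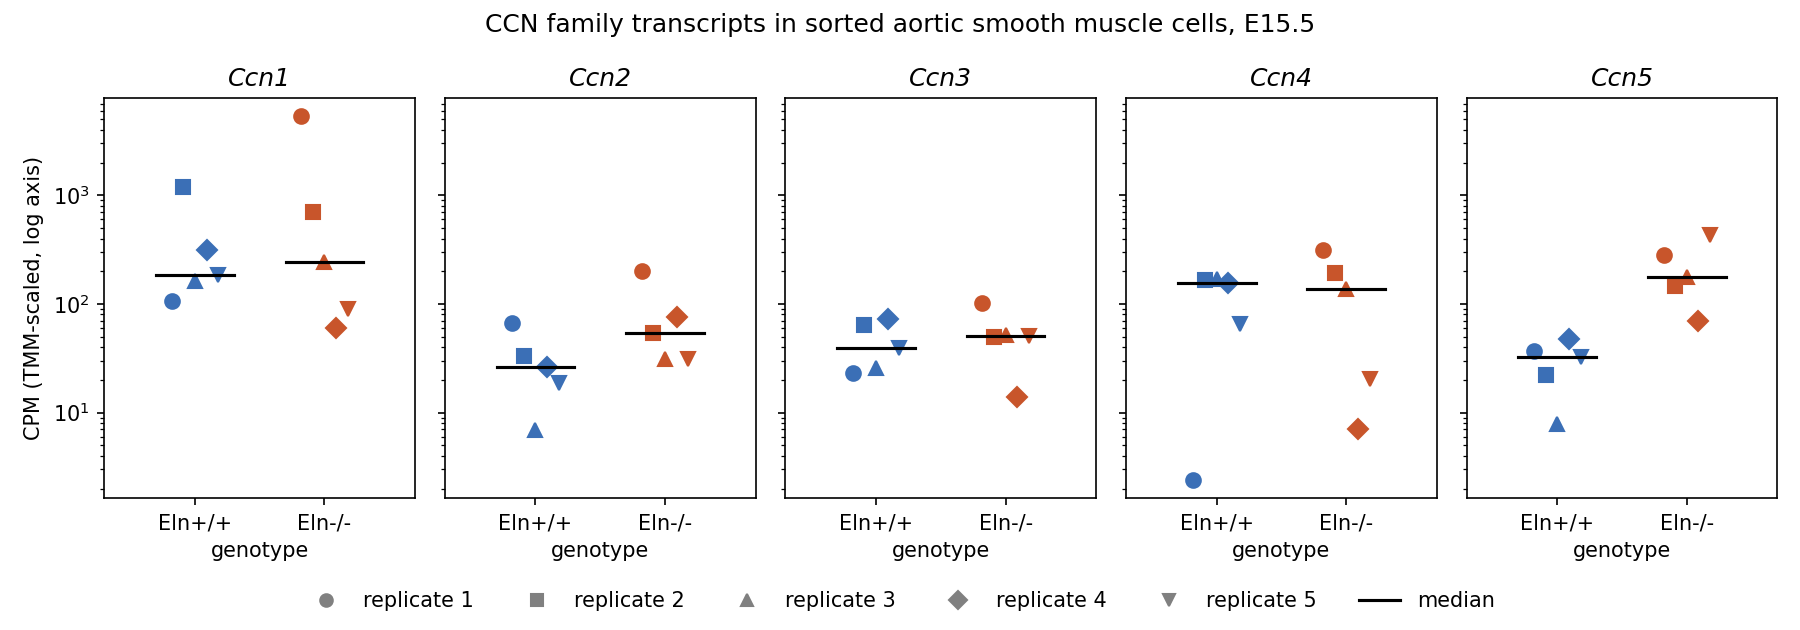
CPM of each CCN gene (TMM-scaled, log axis) in the 5 Eln+/+ (blue) and 5 Eln-/- (orange) libraries, with a symbol per replicate number and a line at the group median. Only Ccn5 shows no overlap between genotypes under this scaling (at most 48.0 CPM in Eln+/+ and at least 69.2 CPM in Eln-/-), and Ccn1 in Eln-/- replicate 1 stands at 5348 CPM.

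By the rule of smallest root mean square distance between centred log2 CPM profiles over the 10 libraries, the genes most like Ccn5 were Gja4, which encodes the gap junction protein connexin 37 (0.77 log2 units), St3gal2, a sialyltransferase gene (0.96), and Nsd2, a histone methyltransferase gene (1.00). The median distance of Ccn5 to all 9699 candidates was 2.33. Per library, Gja4 stood at 12.6, 17.1, 8.95, 29.3 and 20.3 CPM across Eln+/+ and at 51.9, 50.8, 62.5, 31.4 and 96.7 CPM across Eln-/-, each in replicate order. Both Gja4 and Ccn5 were lowest in replicate 3 of Eln+/+, and lowest in replicate 4 and highest in replicate 5 of Eln-/-. Gja4 was picked for its likeness to Ccn5 over these libraries, so this shared pattern follows from that choice and is no separate result. The distance between the members themselves was smallest for Ccn1 with Ccn3 (1.32) and largest for Ccn4 with Ccn5 (2.79). Each member had genes outside the family that lay closer to it than any other member did. With 9699 candidates and so few other members, that is likely for any gene, and nothing is read from it.

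Ccn2, formerly connective tissue growth factor and a widely used readout of YAP/TAZ and TGF-beta activity, was higher on average in Eln-/-, with overlap. Its gene model spans bases 24595442 to 24598683 of chromosome 10 (plus strand). By replicate, its level was 67.0, 33.0, 6.98, 26.1 and 18.8 CPM in the Eln+/+ libraries and 201, 54.2, 30.9, 75.2 and 31.0 CPM in the Eln-/- libraries. Eln-/- replicates 1 and 4 were above all Eln+/+ libraries, and all 5 Eln-/- libraries were above the Eln+/+ median of 26.1 CPM. The log2 fold change of Ccn2 was 1.37 (SE 0.70). It was 0.65 without Eln-/- replicate 1. When the 3 libraries low in detected genes were left out (67.0 CPM of Ccn2 in Eln+/+ replicate 1, 75.2 and 31.0 CPM in Eln-/- replicates 4 and 5), the log2 fold change of Ccn2 was 2.19.

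Reads of Ccn2 cannot be assigned with certainty. Exons of Gm15270, a noncoding transcript on the minus strand, cover 23.2% of the Ccn2 exons (665 bases), and the strand setting of the counting is not given in the sources used here. The table gave Gm15270 35 to 199 counts per library, against 344 to 14707 for Ccn2. Both genes had fractional counts before rounding, such as 1013.45 for Ccn2 and 149.555 for Gm15270 in Eln+/+ replicate 1. Reads may thus be shared between them, and the Gm15270 counts may not be a separate measurement. Gm15270 was highest in Eln-/- replicate 4 (14.5 CPM) and Eln+/+ replicate 1 (9.92 CPM), the libraries in which Ccn2 was highest after Eln-/- replicate 1. The genes most like Ccn2 over the 10 libraries were Med13, a Mediator kinase module subunit (0.51 log2 units), Rgs5, a regulator of G protein signalling in mural cells (0.56), and Nfxl1 (0.60), against a median distance of 1.98.

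Ccn1, formerly Cyr61, had the largest difference in CPM between libraries, and 1 Eln-/- library set its mean. Its gene model spans bases 145646976 to 145649981 of chromosome 3 (minus strand). By replicate, its level was 107, 1196, 162, 316 and 185 CPM in the Eln+/+ libraries and 5348, 697, 241, 60.4 and 89.1 CPM in the Eln-/- libraries. The genotypes overlapped: Eln-/- replicates 4 and 5 were the lowest libraries of the series, and the medians of the Eln+/+ and Eln-/- libraries were 185 and 241 CPM. For Ccn1 the log2 fold change was 1.71 (SE 1.21) with all libraries. It was -0.54 without Eln-/- replicate 1 and 2.75 without Eln+/+ replicate 2.

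The libraries high in Ccn1 were those high in immediate early genes, transcripts switched on quickly when cells are stimulated or dissociated. The mean log2 CPM of 23 such genes, none of them a CCN gene, reached 8.90 for replicate 1 of Eln-/-, 7.13 for replicate 2 of Eln+/+ and 5.91 for replicate 2 of Eln-/-. These 3 libraries also held the highest Ccn1 levels, in the same order. It was 3.83 to 4.83 in the other 7 libraries. Replicate 1 of Eln-/- and replicate 2 of Eln+/+ were also the highest libraries in the other pathway lists described below. Their mean log2 CPM was 5.27 and 4.47 for CCN receptors and 7.86 and 7.26 for SRF and MRTF genes. Their high rank was thus not particular to immediate early genes, and these libraries also had the most genes detected (22951 and 21864). The gene most like Ccn1 over the 10 libraries was Jun, an AP-1 subunit that belongs to the same list (0.40 log2 units), followed by Actn1, encoding the actin cross-linker alpha-actinin 1 (0.48), and Adamts2, a procollagen protease gene (0.59), against a median distance of 2.17. Per library, Jun stood at 32.9, 800, 105, 180 and 162 CPM across Eln+/+ and at 2633, 310, 141, 38.2 and 37.3 CPM across Eln-/-, each in replicate order. For Ccn5, the highest library, Eln-/- replicate 5, had the lowest immediate early level of the series (3.83), and the second highest, Eln-/- replicate 1 at 281 CPM, had the highest (8.90). The part of the immediate early level in the Ccn1 values was not tested.

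**Figure D3:**
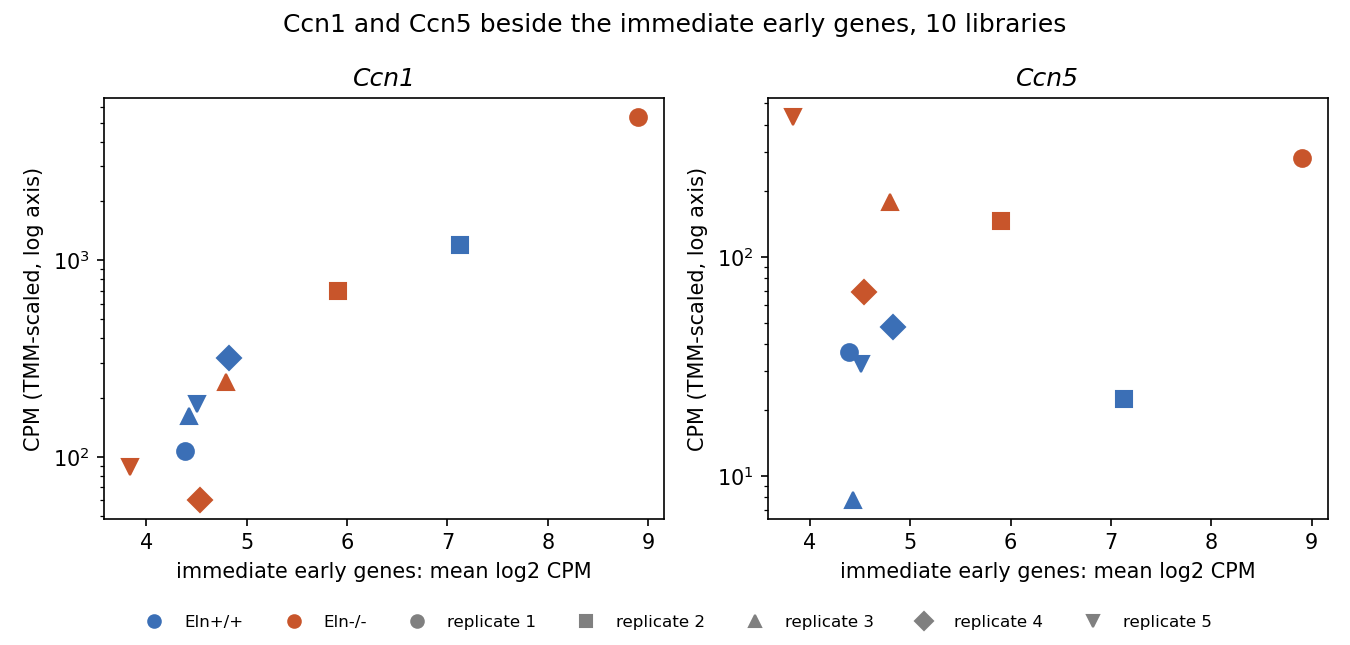
CPM of Ccn1 (left) and Ccn5 (right), on log axes, against the mean log2 CPM of 23 immediate early genes, with a point per library, coloured by genotype and shaped by replicate number. The library with the highest immediate early level (8.90) is the highest in Ccn1 (5348 CPM) and the second highest in Ccn5 (281 CPM). The library with the lowest immediate early level (3.83) is the highest in Ccn5 (433 CPM).

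Of the 5 members, Ccn1 alone was matched in the RefSeq promoter table (GRCm38.p6). The 250 bases before its start, chr3:145649986-145650235 on the minus strand, are shown because Ccn1 is the member with the largest difference in CPM between libraries of one genotype. Capitals mark the single match to CATTCC, the core of the motif bound by TEAD factors, searched on both strands.
Ccn1: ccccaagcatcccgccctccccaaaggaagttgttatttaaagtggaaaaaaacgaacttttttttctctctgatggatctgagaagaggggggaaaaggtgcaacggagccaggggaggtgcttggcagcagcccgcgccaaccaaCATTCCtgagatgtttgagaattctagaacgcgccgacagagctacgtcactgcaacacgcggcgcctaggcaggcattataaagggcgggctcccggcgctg
The match begins 103 bases before the start. CATTCC was found on either strand in 12.6% of 32851 promoter windows of the same length, and the TATA box letters TATAAA, also present in this window, in 12.4%. The letters TGANTCA, the motif of AP-1, the CArG box bound by SRF and the SMAD motif CAGACA were not in this window. They were found in 6.75%, 1.47% and 17.1% of windows. A match is a description of the letters and not of binding.

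Ccn3, formerly Nov, is known for binding Notch1 and for opposing smooth muscle growth. Its gene model spans bases 54745702 to 54754039 of chromosome 15 (plus strand). By replicate, its level was 23.1, 64.1, 26.0, 73.2 and 39.7 CPM in the Eln+/+ libraries and 102, 49.7, 52.1, 14.0 and 50.2 CPM in the Eln-/- libraries. The genotypes overlapped over nearly their whole range, and the log2 fold change of Ccn3 was 0.25 (SE 0.55). Its sign turned to -0.13 without Eln-/- replicate 1. Ccn3 had the narrowest range of the family, 7.30 times between its lowest and highest library, and its spread within genotypes (SD 0.90 log2 CPM) was below the median of 1.59 over the 10885 genes compared. The genes most like it were Clcn7, a lysosomal chloride transporter gene (0.34), Mrps5, of the mitochondrial ribosome (0.34), and Cltb, a clathrin light chain gene (0.36), against a median distance of 1.65.

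Ccn4, formerly Wisp1, separated libraries by the number of genes detected and not by genotype. Its gene model spans bases 66891320 to 66923201 of chromosome 15 (plus strand). By replicate, its level was 2.38, 166, 170, 157 and 65.1 CPM in the Eln+/+ libraries and 316, 191, 137, 7.04 and 20.5 CPM in the Eln-/- libraries. The 3 libraries with the fewest detected genes, from both genotypes, were the lowest, at 2.38, 7.04 and 20.5 CPM (36, 97 and 543 counts), and the other 7 were at 65.1 to 316 CPM. By ratio, Ccn4 had the widest range of the family, 133 times between its lowest and highest library, against 88.5 times for Ccn1. The log2 fold change of Ccn4 was 0.26 (SE 1.04) with all libraries and 0.64 (SE 0.42) without those 3. It was -0.34 without Eln-/- replicate 1. The same 3 libraries were lowest in fibroblast markers, with a mean log2 CPM of 3.88, 2.48 and 2.89 over 7 genes against 6.12 to 7.89 in the others. They were also lowest in CCN receptors (1.87, 1.11 and 0.465) and in TGF-beta genes (0.552, 1.46 and 1.40). The pattern was thus not particular to Ccn4 or to fibroblast markers, and the share of all genes with it is not given. The genes most like Ccn4 were Mcm6, a subunit of the replicative helicase (0.39), P4ha1, a collagen prolyl hydroxylase subunit gene (0.41), and Ubp1 (0.43), against a median distance of 2.13. The part of fibroblast content and of library complexity in the Ccn4 values was not tested.

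Ccn6, the remaining gene of the family and not a member by the rule, had 21 counts in Eln-/- replicate 1, 1 count in Eln+/+ replicate 4 and 0 in the other 8 libraries. It did not pass the filter.

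**Figure D4:**
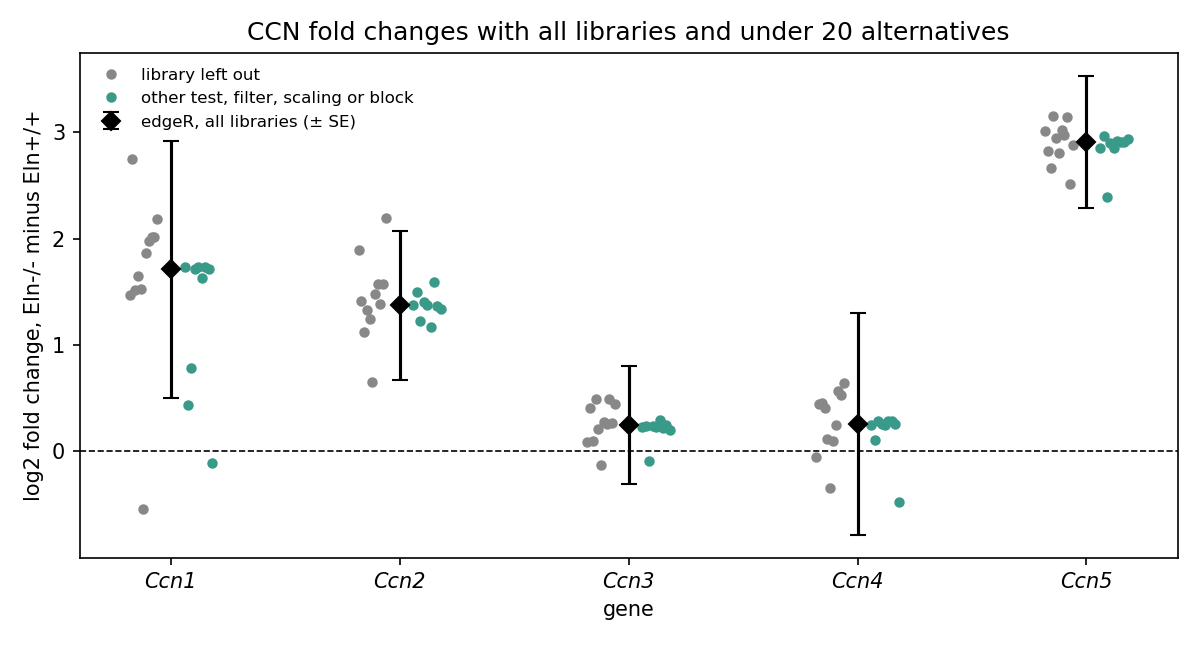
Log2 fold change (Eln-/- minus Eln+/+) of each CCN gene: black diamonds give edgeR's value with all libraries and its SE, grey points the fits that leave out libraries, and green points other tests, filters, scalings or the replicate block. Ccn5 stays between 2.40 and 3.16, whereas Ccn1 ranges from -0.54 to 2.75.

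Across the whole table no gene was called between genotypes by edgeR's quasi-likelihood test with Benjamini-Hochberg adjustment at 0.05 (0 of 15718, 0%), and so no CCN gene was. Without adjustment, 81 genes had a p under 0.05, of which 58 were higher in Eln-/- (0.369% of all tested). DESeq2 called 6 genes (0.0392% of those with an adjusted p), with Ccn5 among them, limma-voom 2 and limma-voom with sample quality weights 7, the last 2 without a CCN gene. Since the family was chosen from this contrast, nothing is read from these counts. Positive log2 fold changes were found for 51.5% of all genes tested and for all 5 CCN genes with all libraries, and Ccn1, Ccn3 and Ccn4 turned negative without Eln-/- replicate 1. That library was the highest of the series in Ccn1, Ccn2, Ccn3 and Ccn4 and the second highest in Ccn5.

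The 9 pathway lists hold receptors and regulators of the CCN genes, targets of the same pathways and related proteins. Since edgeR called none of the 15718 genes tested, no list could hold a called gene, and this says nothing about the lists. Only counts of signs and medians are given. The median log2 fold change over all genes tested was 0.02, or -0.13 without Eln-/- replicate 1. Each gene named is the most abundant of its list or among the 2 with the smallest p in this same contrast. The latter were thus picked for their difference between genotypes. Among 12 tested CCN receptors (integrin subunits, LRP receptors, proteoglycans and Notch1), 7 values were positive and 5 negative, with a median of 0.07. Itgb1, the common integrin beta subunit, was at 218 ± 128 CPM in Eln+/+ libraries and 257 ± 324 CPM in Eln-/- ones. Lrp1, an endocytic receptor for CCN2, was at 9.10 ± 8.70 and 24.3 ± 33.0 CPM. Notch1 was at 2.40 ± 2.50 and 5.89 ± 5.11 CPM. The median of the receptor list was -0.92 once Eln-/- replicate 1 was left out, with 4 positive and 8 negative values.

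Components of the YAP/TAZ and TEAD pathway had 9 positive and 7 negative values and a median log2 fold change of 0.12. The kinase gene Lats2 was at 10.5 ± 6.58 CPM in Eln+/+ libraries and 28.2 ± 24.5 CPM in Eln-/- ones. The transcription factor gene Tead1 was at 3.93 ± 3.56 and 8.19 ± 8.33, and Mob1a, an activator of LATS kinases, at 85.8 ± 43.1 and 76.9 ± 39.5. Lats2 (66.2 CPM) and Tead1 (22.2 CPM), but not Mob1a, were highest in Eln-/- replicate 1. YAP/TAZ targets other than CCN genes had 13 positive and 6 negative values and a median of 0.44. Among these targets, the receptor kinase gene Axl was at 177 ± 121 and 126 ± 99.6 CPM, Fjx1 at 2.61 ± 1.84 and 6.93 ± 1.55, and Foxf2 at 0.638 ± 0.786 and 2.78 ± 3.93. Without Eln-/- replicate 1 the medians of the 2 lists were -0.72 and -0.53. Targets other than CCN genes were highest on average in Eln-/- replicate 1 (mean log2 CPM 4.76) and next in replicate 2 of Eln+/+ (4.12), which also ranked highest in Ccn1.

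TGF-beta ligands, receptors, SMADs and targets had 9 positive and 8 negative values and a median log2 fold change of 0.08, which turned negative in 7 of 20 alternatives, total counts as the only scaling among them (-0.57 without Eln-/- replicate 1). The receptor gene Tgfbr1 was at 116 ± 71.1 CPM in Eln+/+ libraries and 99.7 ± 64.7 CPM in Eln-/- ones, and the inhibitory Smad7 at 7.46 ± 5.89 and 18.1 ± 7.79. SRF and MRTF regulators and cytoskeletal targets had 12 positive and 6 negative values and a median of 0.31 (-0.14 without Eln-/- replicate 1). Actb was at 5223 ± 1092 and 4844 ± 1837 CPM, and the LIM protein gene Csrp1 at 93.2 ± 30.2 and 211 ± 98.5 CPM. The smooth muscle gene Tagln was at 427 ± 213 and 751 ± 411 CPM. Wnt feedback targets, of which 5 of 11 could be tested, had 2 positive and 3 negative values and a median of -0.12. That median was -0.62 without Eln-/- replicate 1 and 0.46 without Eln+/+ replicate 2, and it turned positive in 4 of 20 alternatives. Of these, Znrf3 was at 14.6 ± 11.2 and 9.65 ± 8.60 CPM, Lgr5 at 4.87 ± 6.99 and 1.98 ± 2.15, and Nkd1 at 5.38 ± 3.75 and 7.40 ± 8.91.

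Immediate early genes had 23 positive values of 23 and a median log2 fold change of 1.29, against 51.5% positive over all genes tested. Without Eln-/- replicate 1 the count of positive values was 6 of 23 and the median -0.52. The AP-1 subunit gene Fos was at 849 ± 1217 CPM in Eln+/+ libraries and 1506 ± 2249 CPM in Eln-/- ones, Klf2 at 24.9 ± 27.0 and 138 ± 232, and Maff at 7.80 ± 1.92 and 27.7 ± 35.9. Proteins outside the family that share the IGF-binding module had 7 positive and 4 negative values and a median of 0.52 (-0.04 without Eln-/- replicate 1). Of these, Igfbp4 was at 180 ± 98.6 and 122 ± 76.2 CPM, Igfbp2 at 55.7 ± 28.7 and 134 ± 59.1, and Crim1 at 4.12 ± 2.64 and 8.39 ± 6.71.

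Matricellular proteins outside the CCN family had 6 positive and 7 negative values and a median log2 fold change of -0.12 that depended on single libraries. It was -1.26 without Eln-/- replicate 1, with 1 positive and 12 negative values, and 0.60 without Eln+/+ replicate 2, with 9 positive and 4 negative values. The median turned positive in 7 of 20 alternatives, and it was 0.36 when the 3 libraries low in detected genes were left out. Sparc, a collagen-binding matricellular protein, was at 1931 ± 1019 CPM in Eln+/+ libraries and 1682 ± 1944 CPM in Eln-/- ones. Thbs1, the thrombospondin that activates latent TGF-beta, was at 19.9 ± 22.3 and 54.4 ± 110 CPM, and Smoc1 at 3.03 ± 3.02 and 16.3 ± 21.3 CPM. Ranked by mean level per length among these 18 matricellular genes, CCN members included, Sparc was first and Ccn1 second in Eln+/+, at 510 and 195 CPM per kilobase of exon. In Eln-/- the mean of Ccn1 ranked first, that of Sparc second at 444 and that of Ccn5 the third at 115 CPM per kilobase. The first place of Ccn1 came from Eln-/- replicate 1, since Sparc was above Ccn1 in the other 4 Eln-/- libraries. Without that library the means were 224 ± 172 for Sparc and 135 ± 146 CPM per kilobase for Ccn1 (SD, n = 4). In Eln+/+ Ccn5 had ranked 8 of 18.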

How the data were processed

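Libraries came from sorted cells and were prepared with a kit for low amounts of RNA, per the labels. The authors deposited 1 table of estimated counts per gene and library, not scaled for library size. STAR, DESeq2 and mm10 are named in the submitters' processing notes. No source used here gives the counting program or its strandedness. Columns were matched to samples by the sample names in the labels. Gene spans were checked and were the same as in GENCODE M21 for 27046 of 28165 genes, taking the table's stop minus 1 as the end.

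Counts were rounded, genes were kept by edgeR's filterByExpr, and libraries were scaled with TMM factors. Genotypes were compared with edgeR's quasi-likelihood test (R 4.3.3, edgeR 4.0.16), with DESeq2 1.42.0 and limma 3.58.1 as alternatives. SE is the size of the log2 fold change divided by the square root of F. Log2 CPM used a prior count of 2. Level per length is CPM divided by kilobases of merged exons.

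The members and the gene lists were chosen with earlier results of these data known. Named genes were the members, Eln, the 3 genes closest to each member (average log2 CPM of at least 2, no predicted gene models), and from each pathway list the most abundant gene and the 2 with the smallest p. A gene that this rule names is not reported here. For cell type markers, summed levels and a few genes chosen after their values were seen are given.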

Additional observations from a re-analysis of the deposited data

Results flagged for a closer look

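Of 65 genes examined in each genotype (130 groups of 5 libraries), 30 groups held a library whose gap to the nearest other was above Dixon's critical value for 5 samples, as a share of the group's range. For independent groups of normally distributed values, chance alone flags about 1 in 20. The values here were CPM without a log scale, and several genes were named for their likeness to a member. The count of flags therefore cannot be set against that rate. Eln-/- replicate 1 accounted for 14 of the 30 and Eln+/+ replicate 2 for 9.

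Among the CCN genes, Ccn1 was flagged in both genotypes. It was at 5348 CPM in Eln-/- replicate 1, where the rest of that genotype had 60.4 to 697 CPM, and at 1196 CPM in Eln+/+ replicate 2, against 107 to 316 CPM. Ccn2 was at 201 CPM in Eln-/- replicate 1, against 30.9 to 75.2 CPM.

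In Eln-/- replicate 1, the library also stood far above its group for Actn1 (283 CPM), Adamts2 (310.5 CPM), Fos (5438 CPM), Jun (2633 CPM), Klf2 (553 CPM), Maff (90.1 CPM), Itgb1 (814 CPM), Lrp1 (82.9 CPM), Nfxl1 (14.9 CPM), Smoc1 (53.6 CPM) and Thbs1 (252 CPM). Eln in that library was at 0.493 CPM, against at most 0.0726 CPM in the other Eln-/- libraries.

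In Eln+/+ replicate 2, the library stood above its group for Actn1 (84.2 CPM), Fos (3017 CPM), Jun (799.9 CPM), Lrp1 (24.4 CPM), Smad7 (17.7 CPM), Thbs1 (59.1 CPM), the cardiomyocyte gene Tnnt2 (98.7 CPM) and the neuronal gene Tubb3 (15.2 CPM).

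Eln+/+ replicate 1 stood above its group for the globin genes Hba-a2 (4276 CPM) and Hbb-bs (9977 CPM) and for Rgs5 (1303 CPM). Eln-/- replicate 4 stood above its group for Hbb-bs (2955 CPM) and below it for Mrps5 (4.21 CPM). Fjx1 was low in Eln-/- replicate 2 (4.19 CPM) and Foxf2 high in Eln-/- replicate 5 (9.54 CPM).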

How the results depend on the processing

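Under 20 alternatives the log2 fold changes of Ccn5 (2.40 to 3.16) and Ccn2 (0.65 to 2.19) kept their sign. Those of Ccn1, Ccn3 and Ccn4 turned in 2, 2 and 3 alternatives. With the replicate number as a block the log2 fold changes were -0.11 for Ccn1, 1.34 for Ccn2, 0.20 for Ccn3, -0.48 for Ccn4 and 2.94 for Ccn5, and 0 genes were called. Same-numbered libraries deviated together in 2 of 5 pairs (correlation over 0.1, range -0.56 to 0.51). Of each genotype, 1 of 5 Eln+/+ and 1 of 5 Eln-/- libraries correlated best with its own number. Libraries of unlike number also deviated together (0.705 for Eln+/+ replicate 2 with Eln-/- replicate 1), so this check cannot exclude a pairing. Leaving out 1 library at a time gave -0.54 to 2.75 for Ccn1, 0.65 to 1.90 for Ccn2, -0.13 to 0.50 for Ccn3, -0.34 to 0.57 for Ccn4 and 2.51 to 3.16 for Ccn5. Without Eln-/- replicate 1, the lowest value for Ccn1, Ccn2, Ccn3 and Ccn4 was reached. The count of called genes was 0 with edgeR, 6 with DESeq2, 2 for limma-voom, 7 once limma-voom weighted samples by quality, and 0 to 1 when leaving out 1 library. The cause of these differences was not tested. The order of the 5 members by level per length (median over 10 libraries) was the same with the longest transcript as with merged exons. List medians and overlap by scaling were examined after seeing the data. The medians of the 7 lists that were positive with all libraries turned negative without Eln-/- replicate 1, where the median over all genes was -0.13. The SRF and MRTF list (-0.14) was then near that value and the IGF-binding list (-0.04) above it.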
